A study of Rattus norvegicus with 7 samples.

Results

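The genes described here make, package, recapture, break down and sense γ-aminobutyric acid (GABA), the main inhibitory transmitter of the brain. They are the glutamate decarboxylases Gad1 and Gad2, the vesicular transporter Slc32a1, the membrane transporter Slc6a11, the GABA transaminase Abat, the GABA-B receptor subunits Gabbr1 and Gabbr2, and the synaptic scaffold protein Gphn. Members were the transcript probes whose accession is a RefSeq transcript of 1 of these 8 rat genes. They are 8 of the 6046 genes named on the array and have 10 of its 33849 transcript probes, 2 each for Gad2 and Gphn and 1 for every other gene, and all 10 passed the filter on dim probes. The rule names genes and uses no measured value, but the set was proposed with earlier results of these data known.

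RNA from whole brain was hybridized to 1-colour oligonucleotide arrays, with 1 adult male rat per array. The 4 P rats (replicates 1 to 4) belong to a Wistar-derived line bred selectively for alcohol preference, and the 3 NP rats (replicates 2 to 4) to the line bred for non-preference. None had been given alcohol, and all were housed in pairs. The scans fall on 3 dates. Date 1 holds 2 rats of each line (replicates 1 and 2 of P, 2 and 3 of NP), date 2 holds NP 4 alone, and date 3 holds the other P rats, replicates 3 and 4. Each line is a separate breeding population, so a difference between them is a difference between these 2 populations and cannot be assigned to drinking preference. In whole-brain RNA, fewer cells of a type and less RNA per cell cannot be told apart.

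GABA is made from glutamate by decarboxylation. Gad1 encodes the enzyme that supplies most basal GABA, and Gad2 the form found at nerve endings. Slc32a1 (VGAT) loads GABA and glycine into synaptic vesicles, after release Slc6a11 (GAT3) on astrocytes takes GABA up, and Abat degrades it in mitochondria. GABA acts on chloride channels, the GABA-A receptors, and on GABA-B receptors, which couple to inhibitory G proteins and work only as a pair of Gabbr1, which binds GABA, and Gabbr2, which couples to the G protein. Gphn holds glycine receptors and many GABA-A receptors at the inhibitory synapse.

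Promoter sequences were taken from the RefSeq table of build GRCr8, which held 7 of the 8 genes; Abat is the gene not matched. Shown are the 250 bases before the annotated start of the genes whose values separated the lines or the P rats below, 5′ to 3′ on the plus strand. Capitals mark the GC box GGGCGG or its reverse complement CCGCCC.
Gad2 (chr17:89671468-89671717): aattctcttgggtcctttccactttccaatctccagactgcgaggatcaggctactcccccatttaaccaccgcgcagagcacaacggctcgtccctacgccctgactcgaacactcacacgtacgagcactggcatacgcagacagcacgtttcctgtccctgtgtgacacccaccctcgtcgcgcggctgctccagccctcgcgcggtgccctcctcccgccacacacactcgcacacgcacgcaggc
Slc6a11 (chr4:148853307-148853556): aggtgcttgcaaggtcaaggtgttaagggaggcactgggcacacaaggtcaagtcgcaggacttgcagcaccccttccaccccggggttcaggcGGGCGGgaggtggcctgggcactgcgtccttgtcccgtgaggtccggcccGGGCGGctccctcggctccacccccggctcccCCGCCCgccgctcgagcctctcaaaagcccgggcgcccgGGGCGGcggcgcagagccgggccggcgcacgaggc
Slc32a1 (chr3:167686995-167687244): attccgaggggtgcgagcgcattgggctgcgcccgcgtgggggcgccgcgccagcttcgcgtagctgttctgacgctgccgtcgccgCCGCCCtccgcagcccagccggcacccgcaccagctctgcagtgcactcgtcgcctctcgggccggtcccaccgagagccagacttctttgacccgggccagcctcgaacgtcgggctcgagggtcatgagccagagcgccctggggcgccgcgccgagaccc

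The upstream window of Slc6a11 held 4 GC boxes, that of Slc32a1 held 1 and that of Gad2 held 0. Gabbr1 held 4, and Gad1, Gabbr2 and Gphn held 1 each, so that 6 of the 7 windows had this motif, as 30.5% of all 33469 promoter windows of that length did. The letters TATAAA, on either strand, were found in Gad1 alone among the 7 and in 12.9% of all windows. The cAMP response element TGACGTCA (1.59% of all windows) and the homeodomain core TAATTA (4.86%) were in none of the 7. The 7 windows were rich in G and C, at 62% in Gad2 and 68.4% to 78.8% in the others, against a median of 51.2% over all windows. They held 22 to 39 CpG pairs, where the median window held 5. These are descriptions of the sequence: the arrays measured RNA and no binding.

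None of the 10 probes differed between the lines at an adjusted p under 0.05 (limma with Benjamini-Hochberg adjustment over all 29003 tested probes), where 0.29% of all probes did. At an unadjusted p under 0.05 there were 2 of the 10, one for Gad2 and one for Slc6a11, and 11.5% of all probes. The same 2 were the probes whose P and NP values did not overlap, which was so for 13.3% of all probes with 7 values (P higher in 6.91%, P lower in 6.37%). Both shares rest on 10 probes and are close to those of the array as a whole. The median difference of the 10, P minus NP, was 0.03 on the log2 scale, with 5 above and 5 below 0, and the median size was 0.16, against 0.14 over all probes. The smallest difference called anywhere on the array was 0.71, and the largest of the 10 was 0.33, so no difference of the size seen in these genes was called on 7 arrays.

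**Figure D1:**
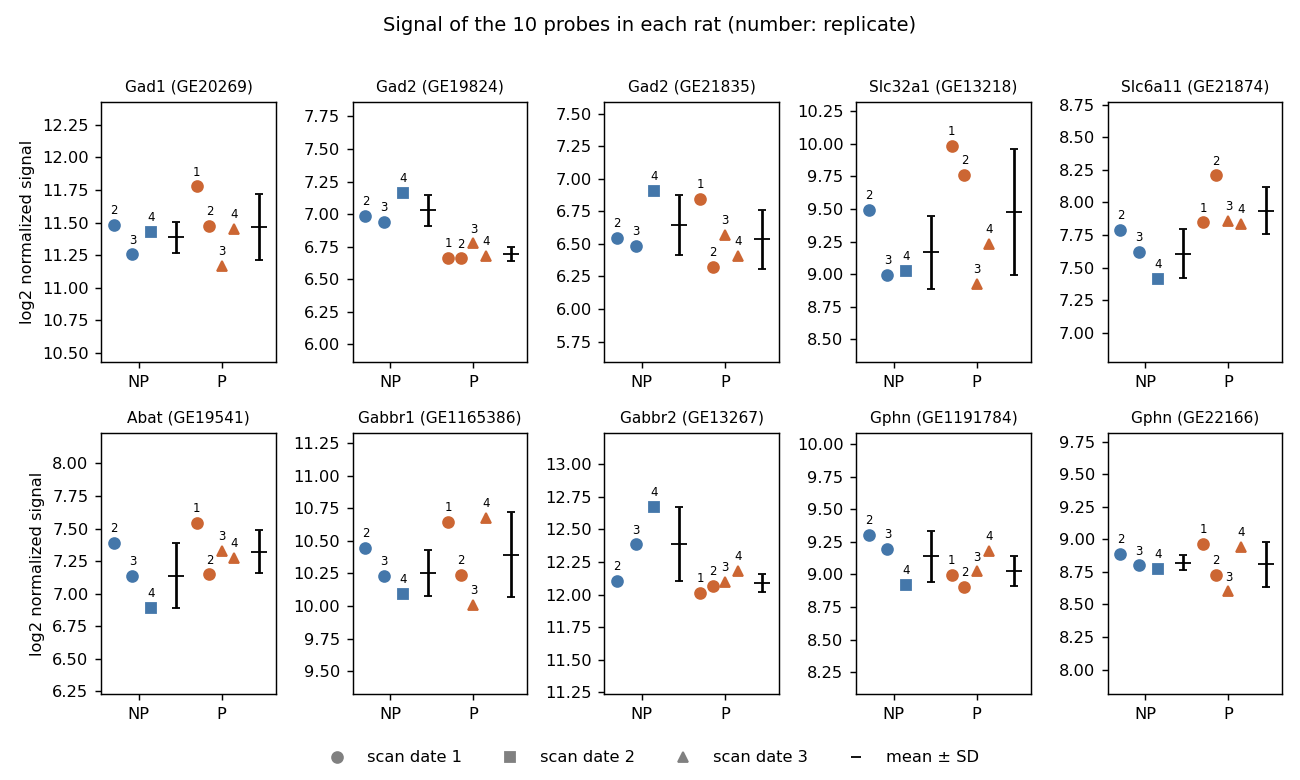
Log2 normalized signal of each of the 10 probes in each rat, NP in blue and P in orange, with the replicate number above each point and the point's shape giving the scan date; bars are mean ± SD of 3 NP and 4 P rats, and every panel spans 2 log2 units. Gad2 probe GE19824 and Slc6a11 show no overlap between the lines, and Slc32a1 shows P 1 and P 2 above every other rat.

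Of the GABA-synthesizing enzymes, Gad1 did not separate the lines. Its log2 signal was 11.48, 11.26 and 11.43 in NP 2, NP 3 and NP 4, and 11.78, 11.47, 11.16 and 11.45 in P 1 to P 4. The P rats enclosed the NP range, with P 1 highest and P 3 lowest of the 7. The means were 11.47 ± 0.25 (SD, n = 4) and 11.39 ± 0.12 (SD, n = 3), and the difference by limma was 0.08 ± 0.15 (SE; 95% interval -0.25 to 0.41, adjusted p = 0.847).

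Gad2 was measured by a pair of probes, which ordered the rats differently. Probe GE19824 read 6.99, 6.94 and 7.16 in NP 2, NP 3 and NP 4, and 6.66, 6.66, 6.78 and 6.68 in P 1 to P 4. Every P rat lay below every NP rat, with a gap of 0.16 between the nearest values. The difference was -0.33 ± 0.11 (SE; 95% interval -0.58 to -0.09), a ratio of 0.793, with an unadjusted p by limma of 0.0131 and an adjusted p of 0.339. It kept its sign in all 29 alternative analyses and was called in none of them (adjusted p from 0.0886 to 0.802). With plain background subtraction it was -0.59 (adjusted p = 0.377) and in the authors' own log2 values it was -0.55 (adjusted p = 0.402).

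The other Gad2 probe, GE21835, read 6.55, 6.48 and 6.91 in the NP rats and 6.84, 6.32, 6.57 and 6.41 in P 1 to P 4. Here the lines overlapped, P 1 being next to the highest rat, NP 4. The difference was -0.11 ± 0.16 (SE; 95% interval -0.46 to 0.24, adjusted p = 0.795), and it was 0.07 within scan date 1 and 0.02 without NP 4, the opposite sign. Both Gad2 probes were dim. The signal left after subtracting local background was 39.8 to 95.1 intensity units for GE19824 and 24.9 to 73.6 for GE21835, which was near background on array P 2. The lower Gad2 value in every P rat was thus seen at 1 of its 2 probes.

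The vesicular transporter Slc32a1 varied the most among the 10 probes, over 1.06 log2 units, a range wider than that of 92.4% of tested probes. It read 9.49, 8.99 and 9.02 in NP 2, NP 3 and NP 4, and 9.98, 9.76, 8.93 and 9.23 in P 1 to P 4. The P rats split by scan date: P 1 and P 2 were the highest of the 7, P 3 was the lowest and P 4 lay within the NP range. Over all 7 arrays the difference was 0.31 ± 0.24 (SE; 95% interval -0.23 to 0.85, adjusted p = 0.623), and with 1 rat left out it ran from 0.14 to 0.49, lowest without P 1 and highest without P 3.

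Among the arrays of scan date 1, 2 of each line, Slc32a1 was higher in P by 0.63 ± 0.18 (SE; adjusted p = 0.0639). Blocking on scan date gave 0.63 ± 0.18 (SE; adjusted p = 0.0723), a term that rests on the same 4 arrays. Neither passed the threshold by limma. None of the 10 probes was called in either fit, where 6.4% of all probes were within scan date 1 and 5.72% with the block. At an unadjusted p under 0.05 there were 3 of the 10 in each, Slc32a1, Gad2 probe GE19824 and Gphn probe GE1191784, against 27% and 25.8% of all probes. Without P 3 and P 4 it was called (0.70, adjusted p = 0.0261), as 3310 probes of 28921 then were. Without P 1 and P 2 it was -0.09 (adjusted p = 0.83). Its sign and its call thus depended on which P rats were compared.

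The GABA transporter Slc6a11 read 7.79, 7.62 and 7.41 in NP 2, NP 3 and NP 4, and 7.85, 8.21, 7.86 and 7.84 in P 1 to P 4. Every P rat lay above every NP rat, but the nearest values, of NP 2 and P 4, were 0.05 apart. The difference was 0.33 ± 0.14 (SE; 95% interval 0.02 to 0.64), a ratio of 1.26, with an unadjusted p by limma of 0.0405 and an adjusted p of 0.418. It lay between 0.23 and 0.43 in the 29 alternative analyses, always above 0 and never called (adjusted p from 0.104 to 0.845). Within scan date 1 it was 0.32 ± 0.15 (SE; adjusted p = 0.211). The value of P 2 stood 0.37 above the lowest P rat, and without P 2 the difference was 0.24 (adjusted p = 0.561).

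Abat, the enzyme that breaks GABA down by transamination, read 7.39, 7.14 and 6.89 in the NP rats and 7.55, 7.15, 7.33 and 7.27 in P 1 to P 4. NP 4 was lowest and P 1 highest, and the lines overlapped. The difference was 0.18 ± 0.15 (SE; 95% interval -0.15 to 0.52, adjusted p = 0.63). It was 0.06 without NP 4 and 0.08 within scan date 1, both without the NP 4 array, the only one of its scan date, and it was 0.31 without NP 2 (adjusted p = 0.563).

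**Figure D2:**
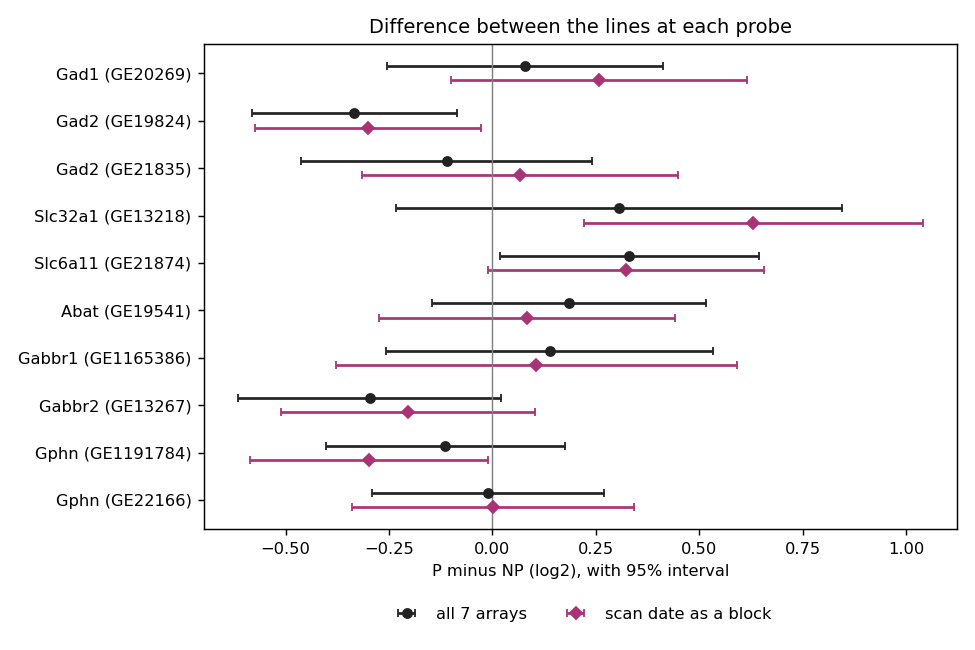
Difference between the lines, P minus NP in log2, at each of the 10 probes with its 95% interval, from all 7 arrays (black) and with scan date as a block (purple). The interval leaves out 0 for Gad2 probe GE19824 in both fits, for Slc6a11 over all arrays, and for Slc32a1 and Gphn probe GE1191784 with the block; none of these passed adjustment over all probes.

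The GABA-B receptor subunits pointed in opposite directions, and neither passed. Gabbr1 read 10.44, 10.23 and 10.09 in the NP rats and 10.65, 10.24, 10.01 and 10.68 in P 1 to P 4. P 3 was the lowest and P 4 the highest of all rats, although both were scanned on the same date. The difference was 0.14 ± 0.18 (SE; 95% interval -0.26 to 0.53, adjusted p = 0.77), and with 1 rat left out it ran from 0.04 to 0.27.

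Gabbr2 read 12.10, 12.38 and 12.67 in NP 2, NP 3 and NP 4, and 12.01, 12.07, 12.10 and 12.18 in P 1 to P 4. The P rats lay close together, at 12.09 ± 0.07 (SD, n = 4), while the NP rats spread over 0.57, at 12.39 ± 0.28 (SD, n = 3). The lowest NP rat, NP 2, fell among the P rats. The difference was -0.30 ± 0.14 (SE; 95% interval -0.61 to 0.02, adjusted p = 0.45), and it was -0.15 without NP 4 (adjusted p = 0.875) and -0.20 within scan date 1 (adjusted p = 0.374). Whether the opposite signs of the subunits reflect a difference between Gabbr1 and Gabbr2 was not tested.

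Gphn, the scaffold, had the narrowest ranges of the 10 probes. Probe GE1191784 read 9.30, 9.20 and 8.92 in the NP rats and 9.00, 8.90, 9.02 and 9.18 in P 1 to P 4, with overlapping lines and a difference of -0.11 ± 0.13 (SE; 95% interval -0.40 to 0.18, adjusted p = 0.738). With 1 rat left out it ran from -0.22 (without NP 4) to -0.03 (without NP 2). Probe GE22166 read 8.88, 8.80 and 8.77 in the NP rats and 8.96, 8.72, 8.60 and 8.94 in P 1 to P 4. Here the NP values lay within the P range, and the difference was -0.01 ± 0.13 (SE; 95% interval -0.29 to 0.27, adjusted p = 0.979). Their ranges over the 7 rats, 0.40 and 0.36, were wider than those of 22.2% and 16.3% of tested probes. Within scan date 1, GE1191784 was lower in P by -0.30 ± 0.13 (SE; adjusted p = 0.171) and GE22166 differed by 0.00 ± 0.14 (SE; adjusted p = 0.996). Whether the probes differed from each other was not tested.

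**Figure D3:**
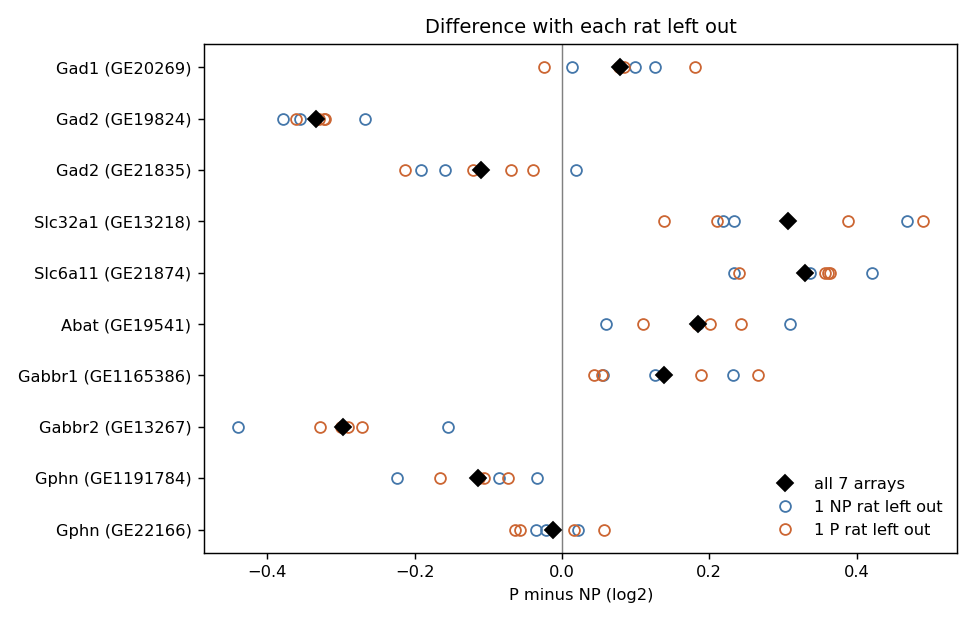
Difference between the lines, P minus NP in log2, over all 7 arrays (diamonds) and with 1 rat left out (circles, blue for an NP rat and orange for a P rat), at each of the 10 probes. Gad2 probe GE19824, Slc6a11, Abat, Gabbr1, Gabbr2, Slc32a1 and Gphn probe GE1191784 stay on 1 side of 0, while Gad1, Gad2 probe GE21835 and Gphn probe GE22166 cross it.

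The P rats were also compared with each other, P 1 and P 2 minus P 3 and P 4, in a fit that kept the NP rats as a group of their own. Rat and scan date cannot be told apart in this comparison. Of the 10 probes 1 was called, Slc32a1, where 14% of all probes were, so the count among the 10 is near that of the array. Slc32a1 was also the 1 probe of 10 at an unadjusted p under 0.05, as 30.1% of all probes were. Slc32a1 was higher in P 1 and P 2 by 0.80 ± 0.19 (SE; 95% interval 0.39 to 1.21, adjusted p = 0.0178 by limma). The call was lost with plain background subtraction (0.86, adjusted p = 0.0832), in the authors' values (0.85, adjusted p = 0.0819), and without P 1 (0.69, adjusted p = 0.103), P 2 (0.90, adjusted p = 0.0789) or P 3 (0.64, adjusted p = 0.131), in 5 of 9 alternatives. It was kept without P 4 (adjusted p = 0.028), with percentile scaling, with a variance prior that follows intensity, and in the authors' values with that prior. Each fit without a P rat leaves 1 rat on a side, which is assumed to vary like the other groups. Gad1 came next, at 0.32 ± 0.16 (SE; 95% interval -0.03 to 0.67, adjusted p = 0.208), and the other 8 probes differed by at most 0.18 in either direction.

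**Figure D4:**
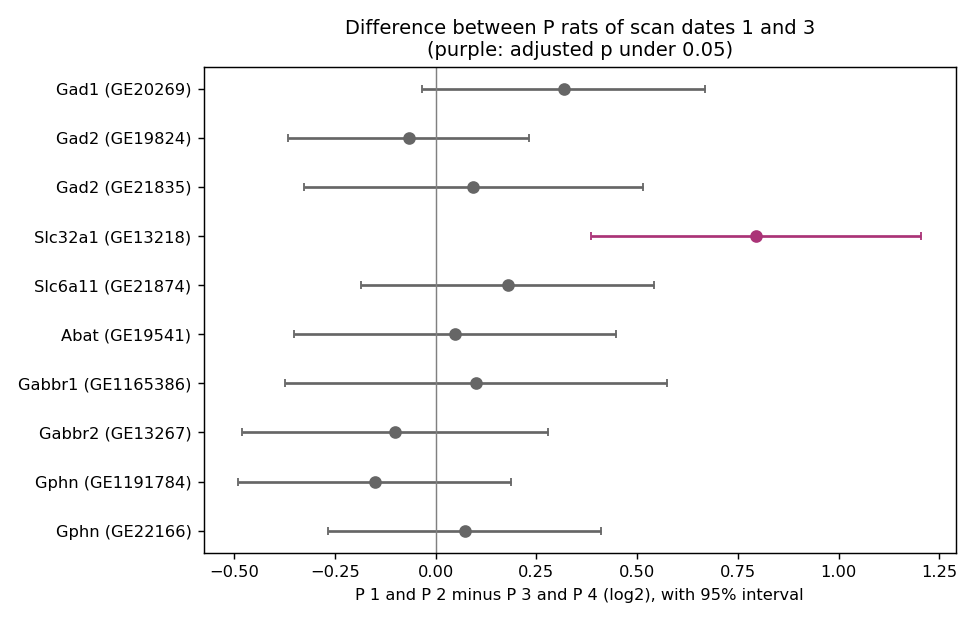
Difference between the P rats of scan date 1 (P 1 and P 2) and of scan date 3 (P 3 and P 4) in log2 at each of the 10 probes, with its 95% interval. Slc32a1, in purple, is the 1 probe called, at 0.80; the other intervals include 0.

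Of 54 cell type and region markers tested between these pairs of rats 8 were called (14.8%), near the 15.7% of all named genes, 6 of them higher in P 1 and P 2. They included 2 of the 3 genes listed as excitatory markers, Slc17a7 and Grin1, and 1 of 4 general neuron markers. Slc17a7, the vesicular glutamate transporter VGLUT1 of excitatory neurons, was higher in P 1 and P 2 by 1.52 ± 0.23 (SE; adjusted p = 0.00381), the synaptic vesicle protein Syp by 0.78 ± 0.18 (SE; adjusted p = 0.0152) and the glutamate receptor subunit Grin1 by 0.60 ± 0.17 (SE; adjusted p = 0.0341). The astrocyte gene Aldh1l1 (0.56), the microglial gene Cd68 (0.60) and the striatal gene Ppp1r1b (0.65) were also called higher, and the microglial gene Aif1 (-0.75) lower. Of the 10 tested markers of inhibitory neurons 1 was called, Npy, lower in P 1 and P 2 (-0.71). Their mean log2 level was 9.95 to 10.04 in P 1 and P 2, 10.08 to 10.09 in P 3 and P 4, and 10.06 to 10.15 in the NP rats. For 3 excitatory markers it was 10.61 to 10.82, 9.82 to 10.03 and 10.04 to 10.43, in the same order. The part of these markers in the Slc32a1 result was not tested.

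The rest of the GABA system was read from 5 lists, with the brightest probe per gene. Of their 62 tested genes none was called by limma between the lines over all 7 arrays, where 0.176% of all named genes were. An unadjusted p under 0.05 was reached by 7 of the 62, and by 11.5% of all probes. In GABA uptake, breakdown and precursor supply, 11 genes were tested, with a median difference of 0.20, against 0.03 over all named genes. Its smallest p was that of Slc6a13 (GAT2), a GABA transporter of meninges and blood vessels and a close relative of Slc6a11. Slc6a13 read 7.63, 7.14 and 7.27 in the NP rats and 8.24, 7.98, 7.95 and 8.14 in P 1 to P 4. No P rat overlapped an NP rat, as was so for 13.3% of all probes with 7 values. The difference was 0.73 ± 0.15 (SE; adjusted p = 0.112). In scan date 1 alone it was 0.72 ± 0.18 (SE) and passed (adjusted p = 0.0476), where 6.3% of named genes were called.

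When scan date was blocked, 3 of the 11 genes of that list were called, all higher in P, where 5.57% of named genes were called in either direction. Beside Slc6a13 they were the glutamine transporters Slc38a3 (0.63 ± 0.16, SE; adjusted p = 0.0457), found on astrocytes, and Slc38a5 (0.77 ± 0.17, SE; adjusted p = 0.036). Glutamine from astrocytes is the precursor from which neurons remake glutamate and GABA. Over all 7 arrays Slc38a3 differed by 0.48 ± 0.16 (SE, adjusted p = 0.332 by limma). Slc38a5 differed by 0.53 ± 0.18 (SE, adjusted p = 0.353 by limma), so these calls rest on the 4 arrays of scan date 1. Within that date the calls over all probes went from 1847 to 116 with offset 16 and to 27 with plain background subtraction. How the list genes and markers called with the block fared in those fits was not examined.

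Of 17 GABA-A receptor subunits 0 were called over all arrays, with a median difference of -0.07 and the smallest p for Gabra5 (-0.42 ± 0.11, SE; adjusted p = 0.245).

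Of 12 genes of gephyrin partners and the inhibitory postsynapse none was called over all arrays (median -0.14, smallest p for Plcl1 at -0.35 ± 0.16, SE; adjusted p = 0.44). With the block Dynll1, a dynein light chain that binds gephyrin, was lower by -0.86 ± 0.17 (SE; adjusted p = 0.0285), and Iqsec3, a gephyrin-binding exchange factor, was higher by 0.76 ± 0.17 (SE; adjusted p = 0.0341). In P 1 and P 2 against P 3 and P 4, a comparison that shares P 1 and P 2 with the blocked one, 3 of the genes were called, where 15.7% of named genes were. They were Dynll1 (-1.02 ± 0.19, SE; adjusted p = 0.00648), Pfn2 (-0.59 ± 0.14, SE; adjusted p = 0.0203) and Iqsec3 (0.78 ± 0.17, SE; adjusted p = 0.0116).

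Of 17 GABA-B effectors and auxiliary subunits none was called between the lines, over all arrays (median -0.01) or with the block (median -0.00478), and the smallest p over all arrays was that of Ddit3 (-0.25 ± 0.11, SE; adjusted p = 0.419), a stress-induced transcription factor that binds GABA-B receptors. Between the pairs of P rats 4 of the 17 were called, all higher in P 1 and P 2, where 15.7% of named genes were. The G protein subunit Gnai2 was among them, at 1.09 ± 0.19 (SE; adjusted p = 0.00543). The median difference of the 17 was -0.03, and Gnai1, not called, read lower in P 1 and P 2 (-0.60 ± 0.19, SE). Of 5 genes that set the chloride gradient none was called over all arrays (median -0.04). Slc12a2 (NKCC1), which loads neurons with chloride, had the smallest p, at -0.36 ± 0.19 (SE; adjusted p = 0.479), and with the block it was called lower in P (-0.49 ± 0.12, SE; adjusted p = 0.0481) but not within scan date 1 (adjusted p = 0.0519). Between the pairs of P rats 3 of the 5 were called: Slc4a3 (0.93) and Clcn2 (0.74) higher and Slc12a2 (-0.57) lower in P 1 and P 2.

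The pattern of the 3 genes with the widest range was set against 5295 other named genes over the 7 arrays, by the root mean square difference of centred log2 values. Nearest to Slc32a1 were Rxrb (0.043), Nlgn3 (0.062) and Caskin1 (0.063), where the median gene stood at 0.391. Nearest to Slc6a11 were Prkab2, Gpaa1 and Foxm1 (0.054 to 0.063, median gene 0.272), and nearest to Gabbr1 were Snap91, Tp63 and Stip1 (0.078 to 0.089, median gene 0.291). The nearest member was Gad1 for Slc32a1 (0.242) and for Gabbr1 (0.166), and Abat for Slc6a11 (0.224). The last is near the root mean square of Slc6a11 about its own mean, 0.225. Members are far fewer than the 5295 genes searched, so their distances cannot be set against those of the genes named. Among so many genes some will lie close to any pattern of 7 values.

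Of the array as a whole, 77.9% to 85.9% of transcript probes lay above background in each rat, with the highest share in NP 4. Above background on all 7 arrays were 10 of 10 inhibitory and 3 of 4 excitatory neuron markers, 3 of 5 general neuron markers, 8 of 8 astrocyte and 6 of 7 oligodendrocyte markers. The exceptions were Snap25 and Stmn2 (3 arrays each), Slc17a6 (4 arrays) and Mog (5 arrays). A missing spot counts here as not above background. Slc17a6 was missing on NP 2, P 1 and P 2 and read 10.26 to 10.73 elsewhere. Mog was missing on P 3 and P 4 and read 10.97 to 11.66 elsewhere. Stmn2, with missing spots too, had means of 10.90 in P and 10.99 in NP. Snap25 was dim, with means of 6.19 and 6.42. Of 57 tested markers of 11 cell types and regions none was called by limma between the lines over all 7 arrays. An unadjusted p under 0.05 was reached by 6 of the 57, and by 11.5% of all probes. The median differences of the 11 lists ran from -0.18 for cerebellum to 0.38 for erythroid cells, the latter a single gene. With the block 2 of 55 were (3.64%, against 5.57% of all named genes), both lower in P: Calb1, a calcium-binding protein of some inhibitory neurons and of Purkinje cells (-0.73 ± 0.17, SE; adjusted p = 0.0416), and the microglial gene Aif1 (-1.23 ± 0.20, SE; adjusted p = 0.0155). Mean log2 levels of the 8 astrocyte markers overlapped between the lines, at 10.19 to 10.34 in P and 10.15 to 10.34 in NP, beside the higher Slc6a11 readings in P, and their part in those was not tested. Of 3 cerebellar markers, Pcp4 (-0.40) and Gabra6 (-0.18) read lower and Neurod1 (0.14), missing on 1 array, higher in P, none of them called. The mean of the 2 measured on every array was 11.13 to 11.46 in P and 11.51 to 11.78 in NP. Singly, Pcp4 did not overlap between the lines, as was so for 13.3% of all probes with 7 values, and Gabra6 overlapped. Gad2 read lower in every P rat at GE19824 and overlapped at GE21835. The part of the cerebellar markers in the Gad2 readings was not tested.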

How the data were processed

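Probes were named where their accession, version removed, is a transcript in the RefSeq table of build GRCr8, which gave a gene for 7207 of 33849. The members and gene lists were chosen with earlier results of these data known. Groups and replicate numbers came from the sample titles, and each rat is 1 sample.

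The deposited scanner tables give, per the file headers, the mean intensity of each spot, the median intensity of its local background, and quality flags. The authors also deposited log2 values for each transcript probe, which follow the log2 of the scanner's scaled intensity with a further adjustment between arrays not given in the sources used here. Scanner software and genome build are likewise not given in the sources used here.

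From the intensities, log2 values were made by normexp (offset 50) and quantile normalization over transcript probes, using limma 3.58.1 under R 4.3.3. Masked, irregular and contaminated spots count as missing. Probes above background on at least 3 of 7 arrays were kept (29008, of which 29003 could be fitted). All member probes have 7 values. Differences were fitted with lmFit and eBayes, and p-values adjusted by Benjamini-Hochberg over all tested probes; a call is an adjusted p under 0.05. Other genes are given by their brightest probe. From each list were named up to 3 called genes, or the gene with the smallest p. A result that this rule would name is not reported here. The marker lists were inhibitory, excitatory and general neurons, astrocytes, oligodendrocytes, microglia, vessels, choroid plexus, erythroid cells, cerebellum and striatum. Replicate numbers were not used to pair rats. Alternatives were other background corrections, scalings, filters, variance models, blocks and left-out arrays; those that changed processing within scan date 1, and the authors' values with another variance prior, were chosen after seeing the data. A run on simulated data tested the fitting code. Figures were drawn with matplotlib 3.10.9. The number of arrays limits the precision.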

Additional observations from a re-analysis of the deposited data

Results flagged for a closer look

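In the P line, Slc6a11 in rat P 2 (8.21 on the log2 scale) stood apart from the other P rats, which lay between 7.84 and 7.86. It was 1 of 48 sets of 4 P values examined for a lone distant rat, where about 2.4 would be singled out by chance. Groups of 3, such as the NP rats, were not examined.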

How the results depend on the processing

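Between the lines 84 probes were called over all 7 arrays. The count was 49 among probes above background on every array, 51 in the authors' values, 154 with array weights and 35 with an equal-variance test per probe. It was 1655 with scan date blocked and 1847 within scan date 1, where calls higher in P made up 28.8% and 29% in place of 46.4%. It was 189 without P 1 and P 2 and 3310 without P 3 and P 4. Leaving out 1 rat gave 51 to 121, the lowest without NP 4 and the next without NP 3 (53). Within scan date 1 it was 27 with plain subtraction, 116 with offset 16 in place of 50, 1181 with no background correction, 1644 with 75th percentile scaling, 1681 with cyclic loess, and 1076 in the authors' values with an intensity-dependent prior. Among the members Slc32a1 alone was called, in 1 analysis without P 3 and P 4 and in 1 with percentile scaling within scan date 1 (0.67, adjusted p = 0.0348 by limma). Within that date percentile scaling also moved the median of all probes, from 0.03 to 0.13.

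Direction held in all 29 alternatives for Gad2 probe GE19824, Slc6a11, Abat, Gabbr1, Gabbr2 and Gphn probe GE1191784. Gad1 turned to -0.0242 with the replicate block and to -0.0794 without P 1 and P 2, and ran from -0.02 to 0.18 with 1 rat left out. Slc32a1 turned to -0.0909 without P 1 and P 2. Gad2 probe GE21835 turned to 0.0666 with date blocked or within date 1, and to 0.00841 with array weights. Within date 1 it was 0.095 in the authors' values, 0.0864 with subtraction, 0.0842 with offset 16, 0.238 with percentile scaling and 0.0736 with cyclic loess. With 1 rat left out it ran from -0.213 to 0.0196, and it has no value under the strictest filter. Gphn probe GE22166 turned to 0.00144 with date blocked or within date 1, 0.0236 with array weights and 0.0247 without P 3 and P 4. Within date 1 it was 0.000952 with subtraction, 0.0144 with no correction, 0.00113 with offset 16 and 0.000804 with percentile scaling, and with 1 rat left out it ran from -0.0633 to 0.0575.

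Between the pairs of P rats 4050 probes were called, and 1182 with subtraction, 9160 with percentile scaling and 1410 in the authors' values. Percentile scaling moved the median of all probes from 0.03 to 0.24, and 78.1% of its calls were higher in P 1 and P 2, against 45.8%. Member calls were 1, and 0, 2 and 0 in those alternatives, the second being Gad2 probe GE21835 (0.55, adjusted p = 0.0286 by limma). Leaving out 1 rat gave 343 (without P 2), 1046 (without P 3), 2283 (without P 1) and 2701 (without P 4) calls and 0 to 1 member. Gad2 probe GE19824 turned to 0.30 with percentile scaling and Abat to -0.016 in the authors' values with either prior. With 1 rat left out, Gad2 probe GE21835 ran from -0.17 to 0.35, Slc6a11 from -0.00134 to 0.36, Abat from -0.15 to 0.25, Gabbr1 from -0.23 to 0.43 and Gphn probe GE22166 from -0.10 to 0.24. The causes were not tested.

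No pairing by replicate number is known. Same-numbered rats correlated at 0.169, 0.0119 and -0.0397 over probes after centring each line, and P 3 correlated best with NP 4 (0.225). Values centred within a line depend on one another, so these correlations cannot decide whether the numbers pair rats. The replicate block, on the 6 rats with a shared number, gave 102 calls and no member. Scan date and rat cannot be told apart within P, NP 4 has its date to itself, and the Gad2 probes lie near background, which limits what they can show.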
